A study of Carassius auratus with 9 samples.

Results

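In muscle of Hefang crucian carp (Carassius auratus), the 2 genes described here encode muscle-type creatine kinase: LOC113049569, annotated as creatine kinase M-type, and LOC113115064, annotated as creatine kinase M-type-like and named ckmb in RefSeq. They were chosen by their mean read counts in these same libraries, out of 76298 genes in the table, so their rank and level are a description and not a tested result. By mean count per library LOC113049569 was the first gene of the table (1470736) and ckmb was the third (750828), after parvalbumin beta LOC113046611 (806523), a calcium-binding protein of fast muscle. The rule used counts over all diets together and no comparison of diets, so these comparisons are tested.

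Fish were fed a commercial basal diet (LA), that diet with 1.7% Met and 3.4% Lys added (MA), or that diet with 3.4% Met and 3.4% Lys added (HA), for 8 weeks, and were fasted for 24 h before sampling. The 3 groups had 3 muscle libraries each, and no group had Lys or Met added alone, so MA against LA and HA against LA combine both amino acids while HA against MA differs in Met only. Sampling took 6 fish per diet, 2 from each of 3 tanks, and which fish or tanks gave the libraries is not given in the sources used here, so that fish sharing a tank cannot be told apart from independent ones. Libraries held 13962770 to 17177610 counts. Fish age is not given in the sources used here.

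Creatine kinase moves a phosphate group between phosphocreatine and ADP and so refills ATP at the myofibrils while a muscle contracts. The cytosolic M-type enzyme is a hallmark of differentiated skeletal muscle and is most abundant in fast, glycolytic fibres; mitochondrial S-type and U-type enzymes load phosphocreatine, and the B-type is the form of brain and many other tissues. Creatine itself is built from arginine and glycine by glycine amidinotransferase, then methylated by guanidinoacetate N-methyltransferase with a methyl group that comes from Met, and enters muscle through the creatine transporter. Goldfish and crucian carp carry a duplicated genome, so most muscle genes are present in more copies than in other vertebrates.

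In the RefSeq models of assembly ASM336829v1, LOC113049569 lies on chromosome 30 at positions 19970706 to 19974736 on the minus strand, and its listed transcript length was 1668 bases. The ckmb gene lies on chromosome 15 at 10723562 to 10726723 on the plus strand, with a length of 1603 bases. Levels are given as FPKM, counted fragments corrected for the length of the gene model and the total of the library, which allows genes of unequal length to be compared. Between diets, counts were also scaled by TMM (trimmed mean of M values), which sets library size from the bulk of the genes, and expressed as CPM, a count scaled to a common library total.

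The samples were fast muscle by their markers. Of 87 fast muscle genes searched, 85 had counts, and together they held 251654 to 359018 CPM, whereas 46 slow and cardiac-type genes summed to 1.72 to 9.71 CPM in 7 libraries and to 162 and 315 CPM in MA3 and MA2. The 10 most counted genes took 34.2% to 41.5% of all counts in a library. Libraries LA1 and HA2 were the most alike of all pairs although their diets differ, with a median absolute log2 difference of 0.127 over 4562 genes, against 0.209 for the next closest pair (MA1 and MA3), and the ratio, the share and the fold changes of the copies are therefore given with and without them.

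LOC113049569 was the most counted gene in 9 of 9 libraries. Its level was 60040, 61187 and 61940 FPKM in the LA libraries 1 to 3, 53897, 54407 and 53886 FPKM in the MA libraries, and 52316, 62341 and 58623 FPKM in the HA libraries. The MA libraries lay close together and below all LA libraries, and the HA libraries spanned the range of both other groups. A lack of overlap between MA and LA was found for 16.7% of all tested genes in TMM-scaled CPM. In mean FPKM over the 9 libraries the gene was second of all genes (57626), after parvalbumin beta LOC113046611 (60283). It alone took 8.73% to 10.4% of the counts of a library.

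The level of ckmb was 24933, 33603 and 29986 FPKM in the LA libraries 1 to 3, 33852, 30171 and 33441 FPKM in the MA libraries, and 32443, 27227 and 29720 FPKM in the HA libraries. All 3 groups overlapped, with the lowest value in LA1 and the highest in MA1. The copy took 4.00% to 5.43% of the counts and ranked 4 in mean FPKM (30597), behind a second parvalbumin, LOC113052464 (44312 FPKM). Counting error was small beside these differences: the 95% interval of a single count, under a Poisson model, was 0.153% to 0.246% of the count to either side, which covers counting error only.

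**Figure D1:**
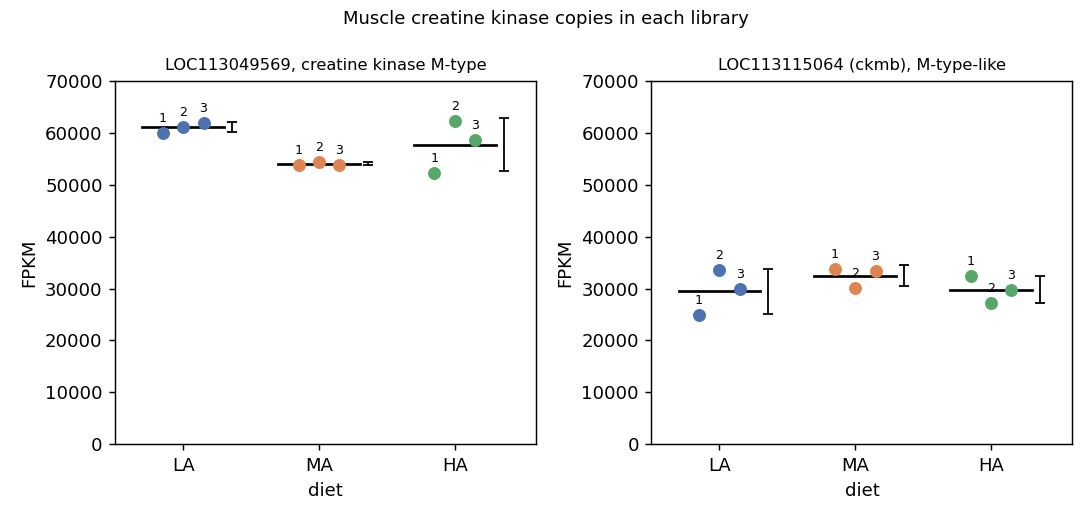
FPKM (vertical axis, from 0) of LOC113049569 on the left and LOC113115064 (ckmb) on the right in each library, by diet on the horizontal axis. Points are libraries with their number, horizontal lines are means and the bars beside them are SDs (n = 3). The MA points of LOC113049569, at 53886 to 54407, lie below the LA points, at 60040 to 61940, and the diets overlap for ckmb. Of all tested genes, 16.7% did not overlap in MA against LA in TMM-scaled CPM.

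By diet, LOC113049569 averaged 61055 ± 956 FPKM in LA, 57760 ± 5068 in HA and 54063 ± 298 in MA (SD, n = 3). In this order HA overlapped both neighbours, and only LA and MA did not overlap. In TMM-scaled CPM, 16.7% of all tested genes did not overlap in MA against LA, in either direction. The order of ckmb was another one, with 32488 ± 2017 FPKM in MA, 29797 ± 2609 in HA and 29507 ± 4355 in LA (SD, n = 3), and no neighbouring groups were separate. Whether less of a transcript means fewer fibres that make it or less RNA per fibre cannot be told apart in whole-tissue RNA.

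Neither copy passed the test in any comparison of diets. With edgeR's quasi-likelihood test and Benjamini-Hochberg adjustment over 23946 genes, the log2 fold change of LOC113049569 was -0.28 for MA against LA (95% interval -0.71 to 0.16, adjusted p = 0.649), -0.21 for HA against LA (-0.65 to 0.23, adjusted p = 0.960) and 0.06 for HA against MA (-0.38 to 0.50, adjusted p = 0.954). For ckmb it was 0.05 for MA against LA (-0.36 to 0.46, adjusted p = 0.950), -0.13 for HA against LA (-0.54 to 0.28, adjusted p = 0.993) and -0.18 for HA against MA (-0.59 to 0.23, adjusted p = 0.811). Both copies together gave adjusted p-values of 0.800, 0.967 and 0.983 by edgeR when their counts were summed. The sum does not depend on how reads common to both were divided between them. Reads left out for having several matches, or assigned to other M-type copies, would still be missing from it. The joint test of the 3 diets gave 0.791 for LOC113049569, 0.898 for ckmb and 0.876 for the sum. In the reported fit no interval reached a log2 change of 1 in either direction, and the widest bound was -0.71. With libraries 1 and 2 of each diet only, a setting chosen after seeing the data, intervals were wider. That of LOC113049569 for MA against LA was then -1.18 to 0.66.

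Few genes of the table passed this test at all. The share of genes called was 0.0835% in MA against LA, 0.0543% in HA against MA and 0.0793% over the 3 diets. In HA against LA it was 0%, where edgeR called 0 genes, 1489 had an unadjusted p under 0.05 and DESeq2 called 48. In TMM-scaled CPM the LOC113049569 libraries of MA also lay wholly below those of LA, with 98763, 82196 and 87384 CPM against 112746, 104662 and 107555 CPM. A lack of overlap in this comparison, in either direction, was found for 16.7% of all tested genes, and in HA against LA, where the copies overlapped, for 10.1%. Without LA1 and HA2 the log2 fold change of LOC113049569 was -0.25 for MA against LA (adjusted p = 0.449, edgeR). It was -0.34 for HA against LA (adjusted p = 0.395) and -0.09 for HA against MA (adjusted p = 0.831). In the same order ckmb had -0.02, -0.23 and -0.21 (adjusted p = 0.967, 0.624 and 0.638, edgeR). The sum had -0.17, -0.30 and -0.13 (adjusted p = 0.621, 0.450 and 0.745, edgeR).

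**Figure D2:**
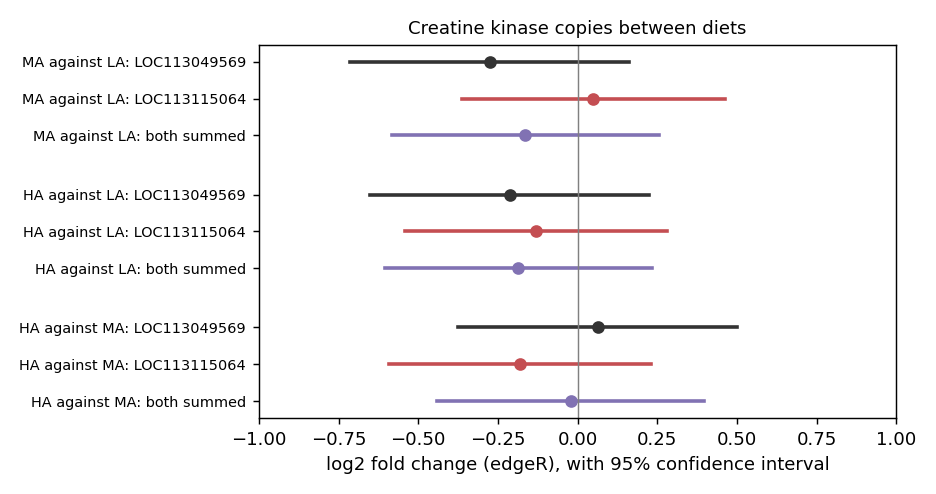
Log2 fold changes from edgeR (horizontal axis) with 95% confidence intervals for LOC113049569, LOC113115064 and their summed counts in the comparisons of diets (vertical axis). All 9 intervals include 0, and none extends past a log2 change of -0.71 or 0.50.

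How even LOC113049569 looked within a diet depended on the scaling. As a share of all counts its coefficient of variation was 1.57% in LA, 0.550% in MA and 8.77% in HA, and in TMM-scaled CPM it was 3.78%, 9.47% and 19.8%. The MA libraries thus differed little in the share of counts taken by this gene and more once scaled by factors of 0.913 to 1.11. Among the 100 most counted genes its SD within diets was the 5th smallest in log2 FPKM (0.0754, against a median of 0.233) and the 25th smallest in log2 CPM (0.184, against a median of 0.297). For ckmb these ranks were 34 (SD 0.154) and 16 (SD 0.157).

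The 2 copies together held 14.0%, 15.6% and 15.1% of all counts in the LA libraries, 14.4%, 13.9% and 14.3% in the MA libraries, and 13.9%, 14.8% and 14.5% in the HA libraries. The groups overlapped, with LA2 highest and MA2 lowest. The mean difference of this share was -0.69 percentage points for MA against LA (p = 0.3), -0.50 for HA against LA (p = 0.4) and 0.19 for HA against MA (p = 0.5), by exact two-sided permutation tests whose smallest possible p is 0.1. An exact permutation test of the 3 diets gave p = 0.35. The differences from LA depended on single LA libraries. Without LA1 they were -1.14 for MA against LA and -0.955 for HA against LA, each at the smallest possible p of 0.1, and without LA2 they were -0.35 (p = 0.5) and -0.16 (p = 0.8), by exact permutation. Without LA1 and HA2 they were -1.14 (p = 0.1) and -1.13 (p = 0.333, the smallest 2 against 2 allows), and 0.00914 for HA against MA (p = 0.9), by exact permutation.

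LOC113049569 exceeded ckmb in each of the 9 libraries, and the ratio of the copies within a library does not change with library scaling. The FPKM ratio of LOC113049569 to ckmb was 2.41, 1.82 and 2.07 in LA, 1.59, 1.80 and 1.61 in MA, and 1.61, 2.29 and 1.97 in HA. The ratios of MA lay below all those of LA, by a narrow margin between LA2 (1.82) and MA2 (1.80), while those of HA spread over both. The mean log2 ratio differed by -0.32 for MA against LA (p = 0.1), by -0.10 for HA against LA (p = 0.6) and by 0.22 for HA against MA (p = 0.2), by exact permutation. In these two-sided tests 3 against 3 cannot go below 0.1, and the adjusted p was 0.6 for each of the 6 comparisons of ratio and share. Without LA1 and HA2, which had the highest ratios, the differences were -0.22 (p = 0.2), -0.12 (p = 0.667) and 0.10 (p = 0.5) by exact permutation. Over the 3 diets diet took up 41.5% of the variance of the log2 ratio (exact permutation p = 0.196).

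The ratio followed the order of the mapped read share in each diet. Libraries were ranked within their diet by the share of reads that mapped, from the alignment statistics of the libraries. From the lowest to the highest mapped share the ratio fell in 3 of 3 diets, from 2.41 to 2.07 and 1.82 in LA, from 1.80 to 1.61 and 1.59 in MA, and from 2.29 to 1.97 and 1.61 in HA. LA1 and HA2 were the libraries of lowest mapped share in LA and HA, and without them the ratio still fell between the remaining ranks of both diets. The FPKM of ckmb rose in that order in 3 of 3 diets, with 24933 to 30171 FPKM in the libraries of lowest mapped share and 32443 to 33852 FPKM in those of the highest. Over all tested genes 5.30% rose and 6.75% fell in this order in all 3 diets. These shares are for the FPKM of single genes and not for ratios of genes. In FPKM LOC113049569 followed the order downward in 1 diet and upward in 0. In TMM-scaled CPM it fell in this order in 2 diets and rose in 1, and ckmb rose in 2 of 3 diets.

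At a given rank of mapped share, the difference in log2 ratio, MA minus LA, was -0.42, -0.36 and -0.19 from the lowest rank to the highest. In the same order HA minus LA was -0.07, -0.07 and -0.18, and HA minus MA was 0.34, 0.29 and 0.02. Each difference had 1 sign at all ranks, and exact permutation tests that exchanged diets within ranks gave p = 0.25, the smallest they allow. For MA against LA this outcome was fixed, because all MA ratios lay below all LA ratios and any pairing of libraries gives it. For LOC113049569 the difference in log2 FPKM between MA and LA was -0.14, -0.20 and -0.18 at these ranks, again with p = 0.25 (exact permutation within ranks). This outcome was fixed too, because all its MA values lay below all its LA values. For ckmb the difference in log2 FPKM was 0.28, 0.16 and 0.01. In log2 of TMM-scaled CPM it was -0.04, 0.06 and 0.11 for ckmb and -0.46, -0.30 and -0.08 for LOC113049569. Sign and trend for ckmb thus depended on the scaling. The part of the mapped share in the level of ckmb was not tested.

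**Figure D3:**
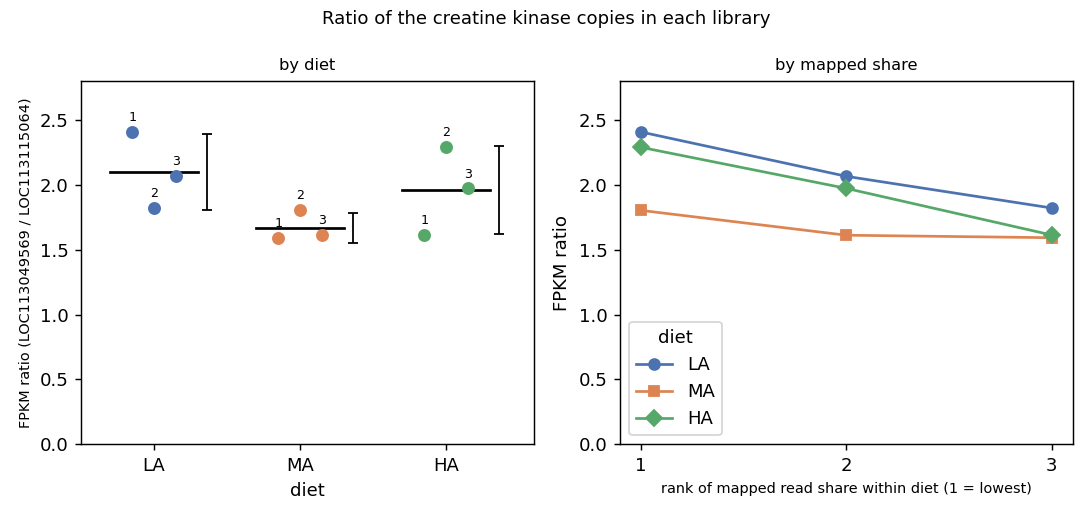
FPKM ratio of LOC113049569 to LOC113115064 (vertical axes, from 0) by diet on the left, with library numbers, means as lines and SDs as bars (n = 3), and by the rank of the mapped read share within the diet on the right (1 = lowest), with 1 line per diet. The ratio falls along the ranks in each diet, from 2.41 to 1.82 in LA, 1.80 to 1.59 in MA and 2.29 to 1.61 in HA.

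Over the 9 libraries the copies did not rise and fall together in a detectable way. Pearson's r of their log2 CPM was 0.271 (p = 0.475) and Spearman's rho 0.233 (p = 0.552), by exact permutation. Without HA1 and MA2, the libraries farthest from the median, r was -0.174. After removal of the diet means r was 0.350 (permutation p = 0.354, over all orders of the 9 libraries). That p is approximate, because the residuals within a diet depend on each other. In log2 FPKM, with the diet means left in, r was -0.545 (exact permutation p = 0.128, adjusted p = 0.384 over the 3 relations computed).

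Summed markers of other cell types separated some diets and overlapped between others, and these sums were not tested. Of single genes tested, 16.7% did not overlap in MA against LA, 10.1% in HA against LA and 17.7% in HA against MA. Summed nerve markers (15 of 15 with counts in every library) were at 360 to 460 CPM in MA, 218 to 243 in LA and 240 to 276 in HA. Summed leukocyte markers (11 of 11 with counts, 6 of them in every library) were at 64.3 to 166 CPM in LA, 49.6 to 56.5 in MA and 55.3 to 57.9 in HA. Fat markers (6 of 7 with counts, 3 in every library) were at 27.7 to 38.9 CPM in LA, 39.1 to 52.2 in MA and 35.7 to 48.2 in HA. Fibroblast markers (10 of 12 with counts, 7 in every library) were at 1309 to 2583 CPM in LA, 1992 to 2591 in MA and 1225 to 1820 in HA. Red blood cell markers (10 of 18 with counts, 5 in every library) overlapped between all diets, at 526 to 1052 CPM. Fast muscle markers, a list that does not hold creatine kinase, were at 316362 to 323898 CPM in LA, 251843 to 359018 in MA and 251654 to 308256 in HA. The part of these cells in the levels of the copies was not tested.

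Beside the 2 copies, 14 further genes carry a creatine kinase name, and they held almost none of the reads. The 2 copies took 99.65% to 99.83% of all creatine kinase counts in a library. Of the 16 genes, 15 had a count and 10 were tested in the reported fit, where 0 of 10 passed in any comparison. Their median log2 fold change for MA against LA was -0.24, against -0.03 over all genes tested. In that comparison 2 of the 10 had an unadjusted p under 0.05 by edgeR, against 11.5% of all genes tested, and DESeq2 called 0.

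The other 2 M-type copies were nearly silent as counted. LOC113076506, named ckma in RefSeq, lies on chromosome 5 at 13728452 to 13732914, minus strand, and had 193 counts in all 9 libraries (0.435 to 1.41 FPKM). LOC113058449 lies on chromosome 40 at 7863589 to 7866688, minus strand, and had 60 counts in all. Its counts were 1, 37 and 18 in LA, 0, 1 and 0 in MA, and 1, 0 and 2 in HA, so that 2 LA libraries gave nearly all of them. The filter on low counts removed it from the reported fit. In MA against LA edgeR called it with no filter (542 of 48369 genes called), without LA1 (293 of 25370) and without LA1 and HA2 (542 of 25074). This gene has too few counts for the rule that chose the named genes and was named after its values were seen.

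The neighbours of these genes paired each low copy with a high one. Among the 20 genes to either side, the regions of LOC113049569 on chromosome 30 and ckma on chromosome 5 shared 33 gene names of 40, and the regions of ckmb on chromosome 15 and LOC113058449 on chromosome 40 shared 28. The other pairs shared 0 or 1. In mean FPKM, LOC113049569 stood 68863-fold above ckma and ckmb 107162-fold above LOC113058449. Reads common to near-identical copies could have been assigned to either, and how they were treated is not given in the sources used here, so the division of counts among the 4 M-type copies is uncertain.

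The mitochondrial forms came next in level. The U-type gene LOC113089232 had a mean of 134 FPKM and the S-type gene LOC113054729 had 82.2 FPKM. Counts of LOC113054729 were 3532, 1194 and 1930 in LA, 1648, 2417 and 2191 in MA, and 316, 3340 and 1736 in HA. The spread within a diet was thus wide, with HA1 lowest and LA1 and HA2 highest, and the diets overlapped with and without LA1 and HA2. The B-type genes LOC113112969 and LOC113057194 had 2.04 and 1.44 FPKM, and a second S-type gene, LOC113110089, had 0.707 FPKM.

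**Figure D4:**
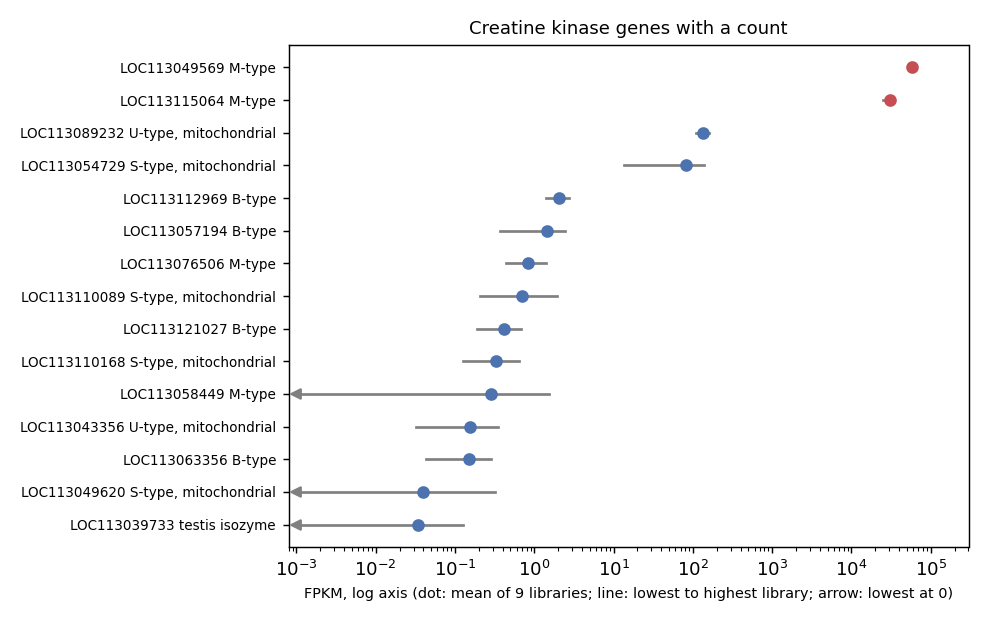
FPKM on a log axis (horizontal) of the 15 creatine kinase genes with a count (vertical), with dots for the mean of the 9 libraries, lines from the lowest to the highest library and an arrow where the lowest library is at 0. The 2 muscle copies, in red at 57626 and 30597 FPKM, stand apart from the next gene, at 134 FPKM.

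Among the 7 lists around creatine kinase, creatine synthesis had the median log2 fold change farthest from 0 for MA against LA (1.14). Of its 5 genes 3 were tested, and 0 passed in any comparison by edgeR, with 2 at an unadjusted p under 0.05 for MA against LA, a level reached by 11.5% of all genes tested. Both were glycine amidinotransferase genes. LOC113061329, on chromosome 43, had 15.1, 6.25 and 8.46 CPM in LA, 34.1, 26.8 and 27.4 in MA, and 10.7, 13.4 and 13.1 in HA. Its MA libraries lay above all others. A lack of overlap, in either direction, was found for 16.7% of tested genes in MA against LA and for 17.7% in HA against MA. The log2 fold change of LOC113061329 was 1.56 (SE 0.31, adjusted p = 0.125, edgeR) for MA against LA and -1.25 (SE 0.30, adjusted p = 0.244, edgeR) for HA against MA.

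LOC113118439, on chromosome 18, had 32.8, 15.3 and 18.2 CPM in LA, 51.4, 46.9 and 48.0 in MA, and 37.1, 32.5 and 29.2 in HA. MA was again above the other diets in every library, a lack of overlap found for 16.7% of tested genes in MA against LA and 17.7% in HA against MA. The log2 fold change was 1.14 (SE 0.28, adjusted p = 0.184, edgeR) for MA against LA. Leaving out LA1 changed the call for both genes. Without it the values for MA against LA were 2.00 (adjusted p = 0.00872) and 1.54 (adjusted p = 0.0119) by edgeR, and DESeq2 on all libraries gave adjusted p-values of 0.00115 and 0.0184. Over all genes, 293 of 25370 were called without LA1 and 440 of 23946 by DESeq2. The methyltransferase gamt was more abundant (613 FPKM), with 948, 330 and 550 CPM in LA, 614, 556 and 540 in MA, and 478, 937 and 596 in HA. It was again highest in LA1 and HA2, and the diets overlapped with and without these libraries.

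The creatine transporter genes had lower values in MA than in HA. LOC113107001 (slc6a8) had 180, 57.9 and 108 CPM in LA, 86.3, 65.0 and 79.9 in MA, and 116, 132 and 122 in HA, and LOC113074147 had 136, 33.7 and 68.6 in LA, 52.0, 45.3 and 48.6 in MA, and 89.2, 108 and 96.6 in HA. MA and HA did not overlap for either gene, and LA spread over both. For HA against MA the log2 fold changes were 0.68 (adjusted p = 0.560) and 1.01 (adjusted p = 0.433) by edgeR, so neither of the 2 tested of 4 transporter genes passed. A lack of overlap in this comparison, in either direction, was found for 17.7% of genes.

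**Figure D5:**
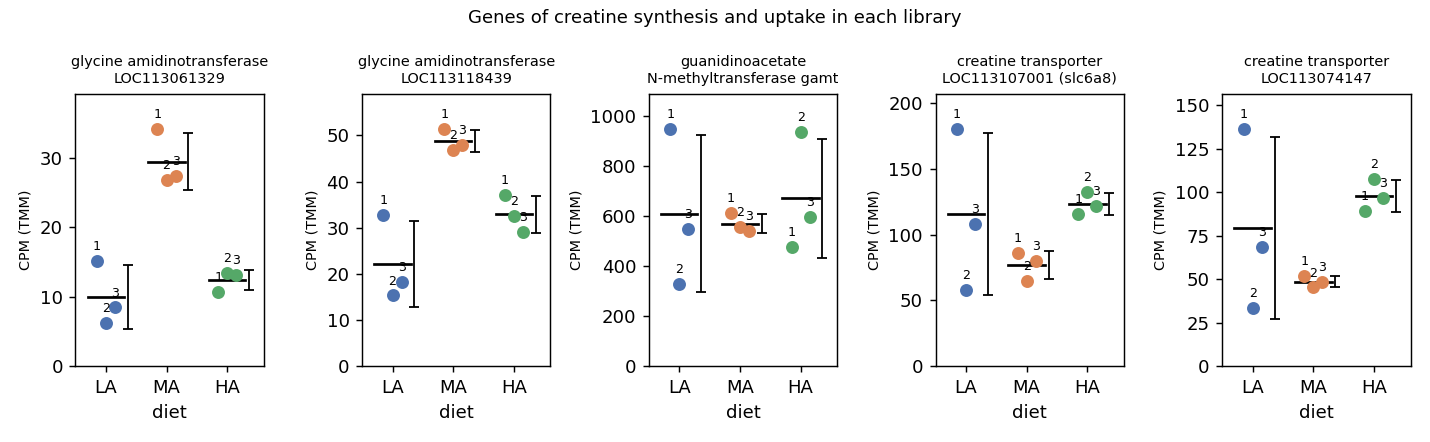
TMM-scaled CPM (vertical axes, each from 0) in each library by diet (horizontal axes) of the glycine amidinotransferase genes LOC113061329 and LOC113118439, gamt and the creatine transporter genes LOC113107001 (slc6a8) and LOC113074147, with library numbers, means as lines and SDs as bars (n = 3). The amidinotransferase points of MA, at 26.8 to 34.1 and 46.9 to 51.4, lie above those of both other diets. Of all tested genes, 16.7% did not overlap in MA against LA and 17.7% in HA against MA.

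Enzymes that share the adenine nucleotide pool with creatine kinase did not pass in the reported edgeR fit either. Adenylate kinase, which turns 2 ADP into ATP and AMP, was tested for 7 of 18 genes with 0 called by edgeR, and its main gene LOC113068064 was at 5360 to 9788 FPKM. In MA against LA 11.5% of all genes tested had an unadjusted p under 0.05 by edgeR, as did 1 of the 7. DESeq2, with 440 of 23946 genes called there, called 1 of the 7, the adenylate kinase 4 gene LOC113050565. Its log2 fold change was -1.50 (adjusted p = 0.165 by edgeR). In edgeR it was called without LA1 (293 of 25370 genes called) and without LA1 and HA2 (542 of 25074). This gene was named after its values were seen. AMP deaminase, which removes AMP, was tested for 8 of 12 genes with 0 called by edgeR or DESeq2 (2 at an unadjusted p under 0.05 in MA against LA, edgeR), and LOC113071751 was at 1815 to 2524 FPKM. The calcium pump of the sarcoplasmic reticulum (SERCA), a main user of ATP in muscle, was tested for 8 of 15 genes with 0 called by edgeR or DESeq2 (1 at an unadjusted p under 0.05 in MA against LA, edgeR), and LOC113072468 was at 5544 to 6371 FPKM with a log2 fold change of -0.05 (adjusted p = 0.940, edgeR) for MA against LA. The filter removed the SERCA genes LOC113047245 and LOC113071765 from the reported fit. In MA against LA edgeR called both with no filter (542 of 48369 genes called) and without MA1 (83 of 25350). In HA against MA it did so too (321 and 75 genes called). Their counts in MA2 and MA3 were 599 and 255, and 115 and 65, with at most 7 in any other library. Both were named after their values were seen.

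Of 25 glycolytic genes, which make ATP from glucose, 23 were tested and 0 passed by edgeR. In MA against LA 6 had an unadjusted p under 0.05 by edgeR, a level reached by 11.5% of all genes tested. DESeq2 called 440 of 23946 genes in MA against LA and 296 in HA against MA. Among them in both comparisons were the aldolase A genes LOC113050324 and LOC113050314. These 2 aldolase A genes, named after their values were seen, had log2 fold changes of 5.14 (adjusted p = 0.0607) and 3.24 (adjusted p = 0.204) for MA against LA by edgeR. There edgeR with the mapped-share rank as a block called both, and 116 of 23946 genes in all. In MA against LA 19 had positive log2 fold changes and 4 negative ones, with a median of 0.29 against -0.03 over all genes, and in HA against LA the split was 13 to 10. Glyceraldehyde-3-phosphate dehydrogenase LOC113060149 was the highest of them (4379 to 13693 FPKM), with a log2 fold change of 0.97 (adjusted p = 0.268, edgeR) for MA against LA, followed by aldolase A LOC113078106 with 0.30 (adjusted p = 0.743, edgeR). All 9 libraries of both muscle copies were above the highest value of either enzyme.

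Across the 9 libraries the profile of each copy was compared with that of 4512 annotated genes with a mean of at least 10 CPM, by Pearson's r of log2 CPM. Closest to LOC113049569 were LOC113106000 (D-glucuronyl C5-epimerase B, r = 0.979), stac3 (r = 0.978), LOC113049516 (F-box only protein 22-like, r = 0.963), LOC113115691 (a subunit of translation factor eIF3, r = 0.960) and LOC113039584 (PRAG1-like, r = 0.958). The protein of stac3 is part of the complex that couples excitation to contraction in skeletal muscle. Closest to ckmb were aass (r = 0.986), the enzyme that opens the main route of lysine breakdown, LOC113059666 (nucleosome assembly protein 1-like 1, r = 0.985), LOC113094379 (prefoldin subunit 5-like, r = 0.961), LOC113096118 (hypoxia-inducible factor 1-alpha inhibitor, r = 0.958) and LOC113114007 (RMD5 homolog B-like, r = 0.951). The list of either copy held none of the genes of the other. By this measure ckmb ranked 1895 of 4512 for LOC113049569, and LOC113049569 ranked 1216 for ckmb. These values describe 9 libraries whose points share a scaling factor and genes picked as the highest of all. In log2 FPKM the same 10 genes had r of 0.731 to 0.930.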

How the data were processed

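The deposited table gives, per gene and library, the authors' whole-number read counts and FPKM values. FPKM as deposited was found to equal the count over the gene length and the library's total count (largest relative deviation 3.6e-14). Libraries were poly(A)-enriched and read in pairs. The submitters' processing notes name DESeq2. The aligner, counter, strand setting and handling of reads with several matches were not given in the sources used here. Columns coded HA, HB and HC were read as the LA, MA and HA diets, as the sample descriptions state.

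Counts were fitted over all 9 libraries with edgeR 4.0.16 (filterByExpr, TMM, quasi-likelihood test, Benjamini-Hochberg over 23946 genes, threshold 0.05) in R 4.3.3. Ratios and shares were tested by exact permutation written with numpy 2.4.6, and scipy 1.17.1 gave their adjusted p-values. The edgeR fit was tested on simulated counts with the same dispersion for all genes. The uneven scaling factors of these libraries were not simulated. Alternatives were RLE size factors, TMM without the 10 most counted genes, total count only, other filters, DESeq2 1.42.0, limma-trend (limma 3.58.1) on log2(FPKM + 1) and log2(FPKM + 0.1), a fit to the compared diets only, blocks and left-out libraries. Leaving out LA1 and HA2 together, for fold changes, ratio and share, and using libraries 1 and 2 only were chosen after seeing the data. Fold changes on the log2(FPKM + 1) scale understate those of low genes. Unless separate fish are assumed, p-values measure only the spread between these libraries.

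Named genes were the 2 copies, other creatine kinase genes averaging 10 counts or more, up to 4 genes of highest mean FPKM per list, the 10 most counted genes and the 5 closest in profile to each copy. The members and lists were chosen with earlier results of these data known. No sequences of these genes were used here.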

Additional observations from a re-analysis of the deposited data

How the results depend on the processing

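For each copy and for their sum, 198 fold changes under other settings were compared with those reported. None passed the threshold (lowest adjusted p = 0.395), and 14 had the opposite sign, all for values near 0. For ckmb, HA against LA was 0.0138 with total counts only and 0.0212 in limma-trend with either pseudocount, and MA against LA was -0.0204 without LA1 and HA2. For LOC113049569, HA against MA was -0.0940 without LA1 and HA2. For the sum, HA against MA was 0.0180 with total counts only and 0.0165 in limma-trend with either pseudocount. As a share of summed FPKM, both copies differed by 0.0344 percentage points in HA against LA. The causes were not tested. Total counts in place of TMM moved the median of all genes from -0.00616 to 0.143 in HA against LA, so values on that scale are relative to this shift.

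Leaving out each library in turn gave -0.354 to -0.225 for LOC113049569 in MA against LA, -0.371 to -0.0915 in HA against LA and -0.0935 to 0.192 in HA against MA. For ckmb it gave -0.0626 to 0.153, -0.195 to -0.0541 and -0.291 to -0.0644, and for the sum -0.255 to -0.0944, -0.299 to -0.104 and -0.133 to 0.0723, in the same order. The log2 ratio ranged from -0.421 to -0.219, from -0.225 to 0.0279 and from 0.0981 to 0.351, and the share of counts from -1.14 to -0.349, from -0.955 to -0.164 and from 0.00914 to 0.427 percentage points.

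Genes called among the lists around creatine kinase, the 2 copies aside, were 0 of 59 in the reported fit. With no filter on low counts they were 7 of 91 in MA against LA and 5 of 91 in HA against MA. All genes gave 542 and 321 of 48369 there. With DESeq2 they were 5 and 3 of 59, against 440 and 296 of 23946 genes. With the mapped-share rank as a block they were 2 and 1 of 59, against 116 and 98 of 23946. Without LA1 and HA2 they were 6 and 1 of 65, against 542 and 75 of 25074. With at least 10 counts in every library 1 of 51 was called in MA against LA, against 26 of 16192 genes. It was the aldolase A gene LOC113050324, named after its values were seen. Leaving out single libraries gave 0 to 5 and 0 to 2, with 5 of 65 without LA1, against 293 of 25370 genes. Over all genes, MA against LA had 20 calls in the reported fit, 440 by DESeq2, 542 with no filter, 116 with the mapped-share rank as a block, 8 in a fit to the 2 diets only, 293 without LA1, 0 without MA3 and 542 without LA1 and HA2. HA against LA had 0, and 48, 119, 4, 0, 175, 0 and 219 under the same settings, and HA against MA had 13, and 296, 321, 98, 15, 35, 3 and 75.

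Replicate numbers did not pair the libraries (correlations of residuals of the same number from -0.6 to 0.273). With the replicate block, LOC113049569 had a log2 fold change of -0.275 in MA against LA (adjusted p = 0.811, edgeR), ckmb 0.0473 (adjusted p = 0.973), and the calls over all genes were 4 in MA against LA and 0 in the other comparisons. It changed no call for the copies. With 3 libraries per diet the unadjusted intervals of the copies are about 0.4 wide to either side on the log2 scale. Counting error is far smaller. Calls used p-values adjusted over all genes tested, so a change beyond 0.4 could still go uncalled. The size of change that could be detected was not tested.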
